A study of Homo sapiens with 6 samples.

Results

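Cytochrome c oxidase, complex IV of the respiratory chain, was followed by ribosome footprints on 38 named genes: the 3 core subunits encoded in mitochondrial DNA (mtDNA), 12 subunits encoded in the nucleus and 23 assembly factors. The genes were chosen by symbol. Of the 38, 37 had a row among the 19330 transcripts of the table, all under their current symbol, and 36 passed the filter on low counts. The assembly factor CMC1 was not analysed here, and the heme a synthesis factor PET117 stayed under the filter, with 2, 5 and 1 counts in the control libraries and 5, 5 and 6 in the depleted libraries.

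Complex IV takes electrons from cytochrome c and passes them to oxygen, pumping protons across the inner mitochondrial membrane as it does so. Its catalytic center lies in MT-CO1 and MT-CO2, which hold the heme and copper groups, and MT-CO3 completes the core. Mitochondrial ribosomes make these subunits in the matrix, whereas cytosolic ribosomes make every nuclear subunit, as well as the assembly factors that insert heme a and copper and join the pieces. A mature enzyme therefore needs the output of both kinds of ribosome.

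The libraries came from K562, a human line of chronic myelogenous leukemia cells. Cells received pLentiCRISPRv2, a lentiviral vector with Cas9, carrying sgRNA against N6AMT1 (sgN6AMT1, 3 libraries) or against the olfactory receptor genes OR11A1 and OR2M49, as the labels spell them (sgCtrl, 3 libraries). Both groups were selected in puromycin for 48 h and analysed 10 days after infection, as transduced populations for which no cloning was described, and the guide that each library carried was not stated. N6AMT1 is a methyltransferase that modifies the release factor eRF1, which recognizes stop codons in the cytosol.

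Library totals ranged from 1821356 to 2969736 counts, and the 13 mtDNA-encoded open reading frames (ORFs) held 0.613% to 0.689% of them, with the groups overlapping. Counts on N6AMT1 itself were 25, 24 and 34 in sgCtrl and 10, 9 and 8 in sgN6AMT1 (log2 fold change -1.51, SE 0.31, edgeR quasi-likelihood test, adjusted p 6.69e-05). All 6 markers of the erythroid-like K562 line had footprints, with a summed level of 12106 to 12948 CPM (counts per 1000000 counts of the library, with its scaling factor) in sgCtrl and 11534 to 12125 CPM in sgN6AMT1. GATA1, HBZ and KLF1 were lower in sgN6AMT1 and TAL1 was higher, and the part of these markers in the results below was not tested. Of 10 markers of T cells, B cells, epithelium and fibroblasts, 6 had at most 4 counts in every library. The other 4, CD3D, EPCAM, COL1A1 and COL1A2, did not pass the test, and the list summed to 231 to 270 CPM in sgCtrl and 244 to 255 CPM in sgN6AMT1.

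Footprints moved in opposite directions within the mtDNA-encoded core: MT-CO1 rose in N6AMT1-depleted cells, and MT-CO2 and MT-CO3 fell. In the nucleus-encoded part of the enzyme the changes were smaller, with COX8A, COX6A1, COX6C and COX7A2 rising and COX5A falling. Among assembly factors, the copper chaperone SCO1 and the heme-binding factor COA7 fell, whereas the copper chaperone COX17 and PET100 rose. By edgeR's quasi-likelihood test, adjusted over 9202 genes at a threshold of 0.05, 7 of the 36 tested members were higher in sgN6AMT1 (19.4%) and 5 were lower (13.9%). Over all tested genes 12.9% were called higher and 13.9% lower, 26.9% in either direction, so the members were called about as often as other genes. DESeq2, which called 5.43% of its tested genes higher and 6.86% lower, called 4 members higher and 3 lower. Total counts as the only scaling raised the median log2 fold change over all tested genes by 0.055. Under it edgeR called 9 members higher and 3 lower, and the share of all genes called is not given here. With its usual scaling the median log2 fold change of the members was 0.09, beside 0.01 over all tested genes.

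**Figure D1:**
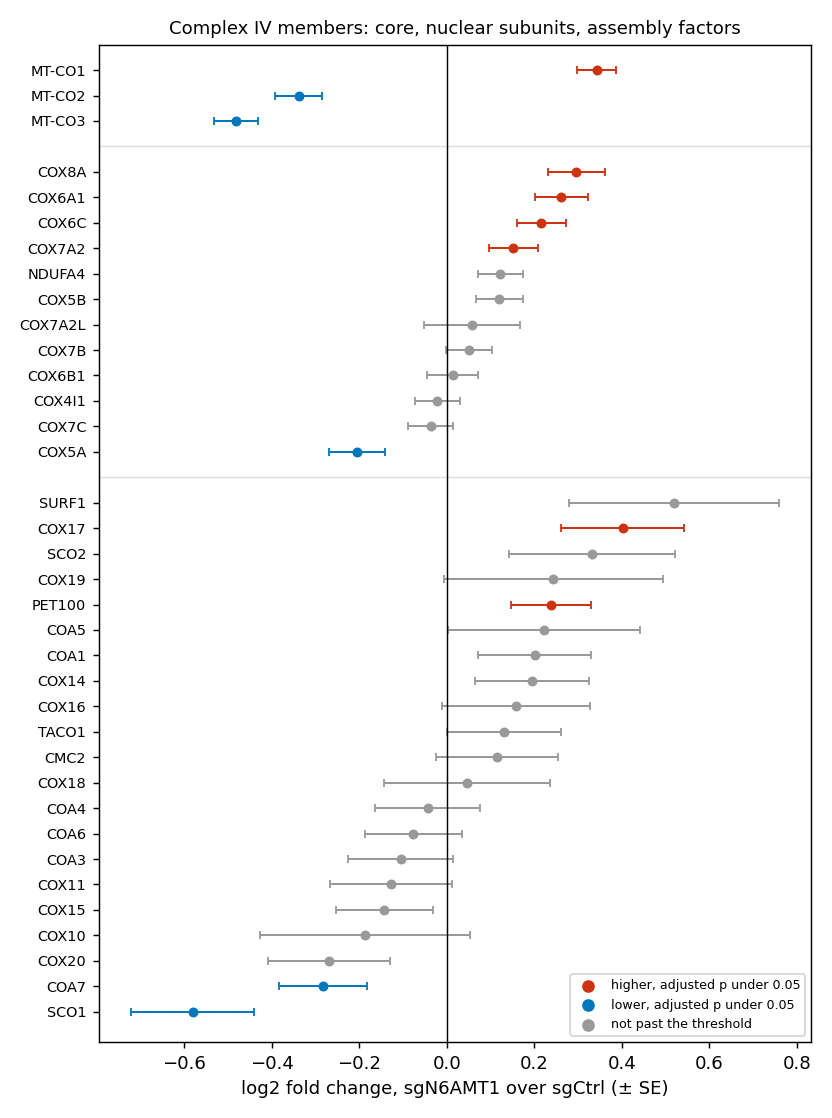
Log2 fold change of footprints (sgN6AMT1 over sgCtrl) for the 36 tested complex IV genes, with bars of 1 SE, in blocks of core subunits, nuclear subunits and assembly factors. The core subunits lie at 0.34, -0.34 and -0.48, the 12 nuclear subunits between -0.20 and 0.30, and the 21 assembly factors between -0.58 and 0.52.

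The ends of the coding sequences (CDS) are shown because the core genes differ there: the mitochondrial code uses termination signals of its own, read without eRF1. Each line gives the last 30 bases of the coding strand from GENCODE 44 on GRCh38, with capitals marking the bases of the stop codon. MT-CO1 (chrM:7416-7445, plus strand) ends on AGA, MT-CO2 (chrM:8240-8269, plus strand) on TAG, and MT-CO3 (chrM:9961-9990, plus strand) on a single T, to which polyadenylation of the mRNA adds the rest of the codon.
MT-CO1: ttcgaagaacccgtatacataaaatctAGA
MT-CO2: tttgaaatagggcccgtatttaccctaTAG
MT-CO3: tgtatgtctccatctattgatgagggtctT

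MT-CO1, which holds the oxygen-binding center, lies at positions 5904 to 7445 of mtDNA as 1 exon with a CDS of 1542 bases. Its counts were 2768, 4037 and 2606 in sgCtrl and 3972, 3881 and 3210 in sgN6AMT1. After scaling for library size these became 1390, 1392 and 1285 CPM in sgCtrl and 1741, 1677 and 1743 CPM in sgN6AMT1. Every sgN6AMT1 library lay above every sgCtrl library, and the mean went from 1356 ± 61.4 to 1720 ± 37.6 CPM (SD, n = 3 each). The log2 fold change was 0.34 (SE 0.045, edgeR adjusted p 1.02e-09).

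MT-CO2, the subunit that receives electrons from cytochrome c through its copper A site, occupies positions 7586 to 8269 with a CDS of 684 bases. It had 1328, 2004 and 1235 counts under sgCtrl and 1257, 1133 and 953 under sgN6AMT1, which gave 667, 691 and 609 CPM against 551, 489 and 517 CPM. Depleted libraries were all below the controls, and the mean fell from 656 ± 42.2 to 519 ± 30.8 CPM (SD, n = 3 each; log2 fold change -0.34, SE 0.054, edgeR adjusted p 2.65e-07).

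MT-CO3, the core subunit without a metal site, spans positions 9207 to 9990 with 784 coding bases. Its 2086, 3088 and 1956 counts in sgCtrl and 1750, 1627 and 1353 counts in sgN6AMT1 gave 1048, 1065 and 964 CPM against 767, 703 and 734 CPM. The groups did not overlap here either. The mean fell from 1026 ± 53.7 to 735 ± 32.1 CPM (SD, n = 3 each; log2 fold change -0.48, SE 0.050, edgeR adjusted p 7.98e-14). The direction and the call of all 3 core genes held under each of the 16 alternative settings tried. Among these, the removal of trends on CDS length and GC content left mtDNA-encoded genes unadjusted.

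**Figure D2:**
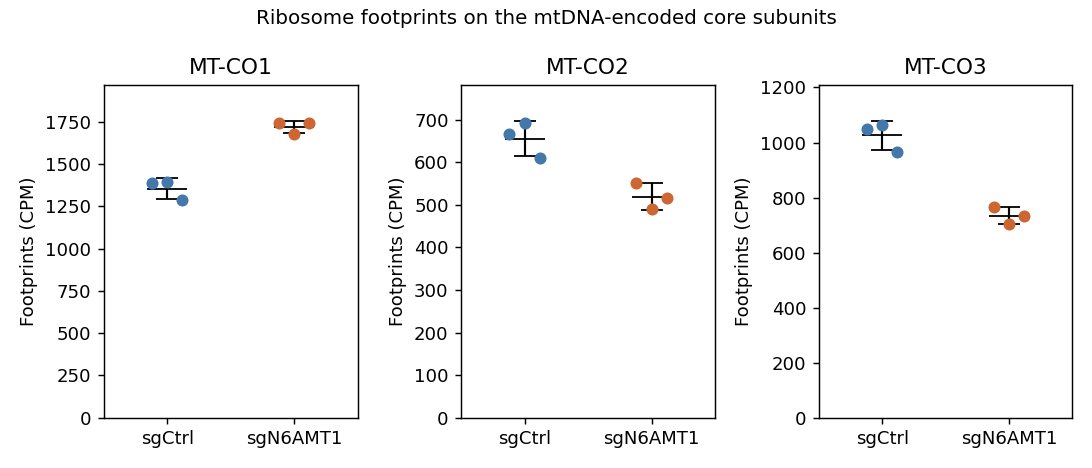
Ribosome footprints (CPM, each axis from 0) on MT-CO1, MT-CO2 and MT-CO3 in each of the 3 sgCtrl and 3 sgN6AMT1 libraries, with bars of the mean ± SD. MT-CO1 was 1285 to 1392 CPM in sgCtrl and 1677 to 1743 CPM in sgN6AMT1, whereas MT-CO2 and MT-CO3 were lower in every sgN6AMT1 library.

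A ratio of 2 core genes within a library does not depend on how the library was scaled. The log2 ratio of MT-CO1 to MT-CO2 counts was 1.06, 1.01 and 1.08 in sgCtrl and 1.66, 1.78 and 1.75 in sgN6AMT1, a difference of 0.680. MT-CO1 to MT-CO3 went from 0.408, 0.387 and 0.414 to 1.18, 1.25 and 1.25, a difference of 0.825. In both ratios the gap between the groups was many times the spread within them. MT-CO2 and MT-CO3, which fell together, also parted slightly, with a log2 ratio of -0.651, -0.624 and -0.663 in sgCtrl and -0.477, -0.522 and -0.506 in sgN6AMT1, a difference of 0.145. All 3 ratios gave a 2-sided exact permutation p of 0.1, the smallest that 20 splits of 3 against 3 allow, and 0.1 after adjustment over the 3 pairs, so this test alone could not reach 0.05.

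Set against the other ORFs read by mitochondrial ribosomes, MT-CO1 held 19.9%, 20.0% and 20.4% of mtDNA-encoded footprints in sgCtrl and 25.6%, 27.3% and 27.2% in sgN6AMT1. MT-CO2 went from 9.55%, 9.93% and 9.68% to 8.10%, 7.96% and 8.07%, and MT-CO3 from 15.0%, 15.3% and 15.3% to 11.3%, 11.4% and 11.5%. None of these shares overlapped between the groups (exact permutation p = 0.1 for each, also after adjustment over the 3 genes). Of the 13 ORFs, MT-CO1 was the only one called higher by edgeR, and MT-ATP6, MT-CYB, MT-ND2 and MT-ND4 were called lower besides MT-CO2 and MT-CO3. Of the ORFs called lower, only MT-ND4 overlapped between the groups in CPM (log2 fold change -0.21, SE 0.057, edgeR adjusted p 3.45e-03). MT-ND6, on the other strand, was above its controls in every depleted library but varied widely (log2 fold change 0.84, SE 0.23, edgeR adjusted p 0.0691).

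Per kilobase of CDS, the order of the core genes changed. MT-CO3 was the most covered in each sgCtrl library (1337, 1358 and 1230 CPM per kb), followed by MT-CO2 (975, 1010 and 890) and MT-CO1 (902, 903 and 833). In each sgN6AMT1 library MT-CO1 came first (1129, 1087 and 1130 CPM per kb), followed by MT-CO3 (978, 897 and 937) and MT-CO2 (805, 716 and 756). The summed level of the 3 genes was nearly the same in the groups, 3037 ± 156 CPM in sgCtrl and 2974 ± 96.5 CPM in sgN6AMT1 (SD, n = 3 each), and overlapped between them.

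**Figure D3:**
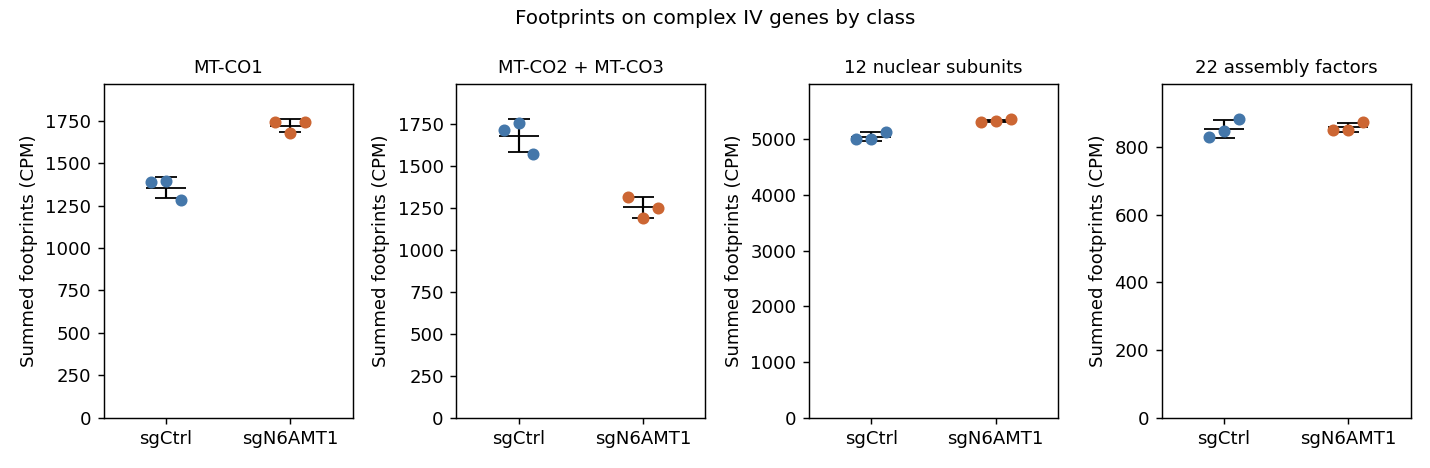
Summed footprints (CPM, each axis from 0) on MT-CO1, on MT-CO2 plus MT-CO3, on the 12 nuclear subunits and on the 22 assembly factors in the table, for each library, with bars of the mean ± SD. MT-CO2 plus MT-CO3 went from 1681 ± 95.7 to 1254 ± 62.8 CPM, the nuclear subunits from 5044 ± 77.1 to 5332 ± 19.4 CPM, and the assembly factors overlapped between the groups.

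The nuclear subunits surround the core and are added to it in steps, many of them as small single-helix proteins. Their summed footprints were 5004, 4996 and 5133 CPM in sgCtrl and 5315, 5328 and 5353 CPM in sgN6AMT1. The depleted libraries were all higher, with a ratio of means of 1.06, beside 0.746 for MT-CO2 and MT-CO3 summed. Of the 12 subunits, 4 were called higher and 1 lower, beside 12.9% and 13.9% of all tested genes. Among tested genes with a CDS as long as these subunits, 18.6% were called higher and 13.1% lower. Without overlap between the groups, 6 subunits were higher and 1 lower, where 18.4% of all tested genes were higher and 19.2% lower. Each of the 12 had a smaller log2 fold change in size than MT-CO1. As a share of all footprints on complex IV genes, the nuclear subunits went from 56.5% ± 1.2 to 58.2% ± 0.65 and the core from 34.0% ± 1.5 to 32.5% ± 0.72 (SD, n = 3 each), and the ranges overlapped in both cases.

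COX8A (chromosome 11, CDS of 210 bases), a small helix packed against MT-CO1, had 489, 654 and 501 counts under sgCtrl and 619, 656 and 603 under sgN6AMT1. These were 246, 225 and 247 CPM against 271, 283 and 327 CPM, so the groups stood apart, and the log2 fold change was 0.30 (SE 0.066, edgeR adjusted p 2.04e-04). COX6A1 (chromosome 12, CDS of 330 bases), a subunit next to MT-CO3, had 694, 864 and 675 counts against 827, 903 and 771. Its level rose from 326 ± 26.0 to 390 ± 28.0 CPM (SD, n = 3 each; log2 fold change 0.26, SE 0.061, edgeR adjusted p 3.96e-04), with the lowest depleted library at 362 CPM and the highest control at 349 CPM.

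COX6C (chromosome 8, CDS of 228 bases), another single-helix subunit, had 820, 1346 and 852 counts under sgCtrl and 1152, 1187 and 907 under sgN6AMT1. In CPM it read 412, 464 and 420 against 505, 513 and 492, every depleted library being higher (log2 fold change 0.22, SE 0.055, edgeR adjusted p 1.42e-03). COX7A2 (chromosome 6, CDS of 348 bases), the ubiquitous form of subunit 7A, had 730, 1059 and 780 counts against 968, 964 and 732, or 367, 365 and 385 CPM against 424, 416 and 397 CPM. Its log2 fold change of 0.15 was the smallest among the called members (SE 0.057, edgeR adjusted p 0.0356), and the call was lost without sgCtrl 1 (adjusted p 0.100), sgCtrl 2 (0.139), sgN6AMT1 1 (0.114) or sgN6AMT1 2 (0.127), as well as under DESeq2 (0.178).

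COX5A (chromosome 15, CDS of 462 bases) joins MT-CO1 early, together with COX4I1. With at least 472 counts in every library, it had 287, 268 and 303 CPM under sgCtrl and 246, 241 and 256 CPM under sgN6AMT1, without overlap. The only nuclear subunit called lower, it had a log2 change of -0.20 (SE 0.064, edgeR adjusted p 0.0101). The call was lost without sgCtrl 3 (adjusted p 0.0762) or sgN6AMT1 2 (0.0770), under DESeq2 (0.0618) and with total counts as the only scaling (0.0696).

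For its partner COX4I1 the log2 fold change was -0.02 (95% interval -0.12 to 0.08, edgeR adjusted p 0.797), and the groups overlapped. COX6B1, COX7A2L, COX7B and COX7C overlapped too, with values of 0.01, 0.06, 0.05 and -0.04, and their 95% intervals lay within -0.15 and 0.27. COX5B, the zinc-binding subunit, and NDUFA4, a late-joining subunit once assigned to complex I, each had a log2 fold change of 0.12 without overlap between groups (edgeR adjusted p 0.0907 and 0.0630). Of 16 alternative settings, COX5B passed the test in 2 and NDUFA4 in 3. Both passed with total counts as the only scaling (adjusted p 9.35e-03 and 4.81e-03). Neither passed under DESeq2 (adjusted p 0.302 and 0.202). With trends on CDS length and GC content removed, the values were 0.06 and 0.05 (edgeR adjusted p 0.306 and 0.377).

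Isoforms of these subunits that belong to other tissues were nearly absent. COX4I2, COX6A2, COX6B2, COX7A1, COX8C and NDUFA4L2 had 0 counts in all 6 libraries, which by counting error alone allows up to 3 in each. COX7B2 had 6, 15 and 6 counts under sgCtrl and 15, 16 and 6 under sgN6AMT1, which overlapped (log2 fold change 0.55, SE 0.38, edgeR adjusted p 0.290).

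Levels per kilobase of CDS put the structural subunits above the factors that assemble them. In sgCtrl COX7C was highest at 3283 ± 118 CPM per kb (SD, n = 3), followed by NDUFA4 (2490 ± 27.0), COX6C (1895 ± 123) and COX6B1 (1551 ± 101). The nuclear subunits had a median of 1244 CPM per kb, and the core genes, at 879 to 1308, lay within their range. COX7A2L, which links complex IV to complex III, stood apart at 214 ± 11.4 CPM per kb. Of the 14 subunits with a known CDS length, 13 were above every one of the 21 assembly factors with a length, whose median was 75.9 CPM per kb. PET100 was the most covered of these factors at 421 ± 27.6 CPM per kb, and COX10, the enzyme of the first step to heme a, had 9.43 ± 1.22. Cytosolic and mitochondrial footprints may be recovered with different efficiency, so the place of the core genes in this order is a description of the libraries.

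**Figure D4:**
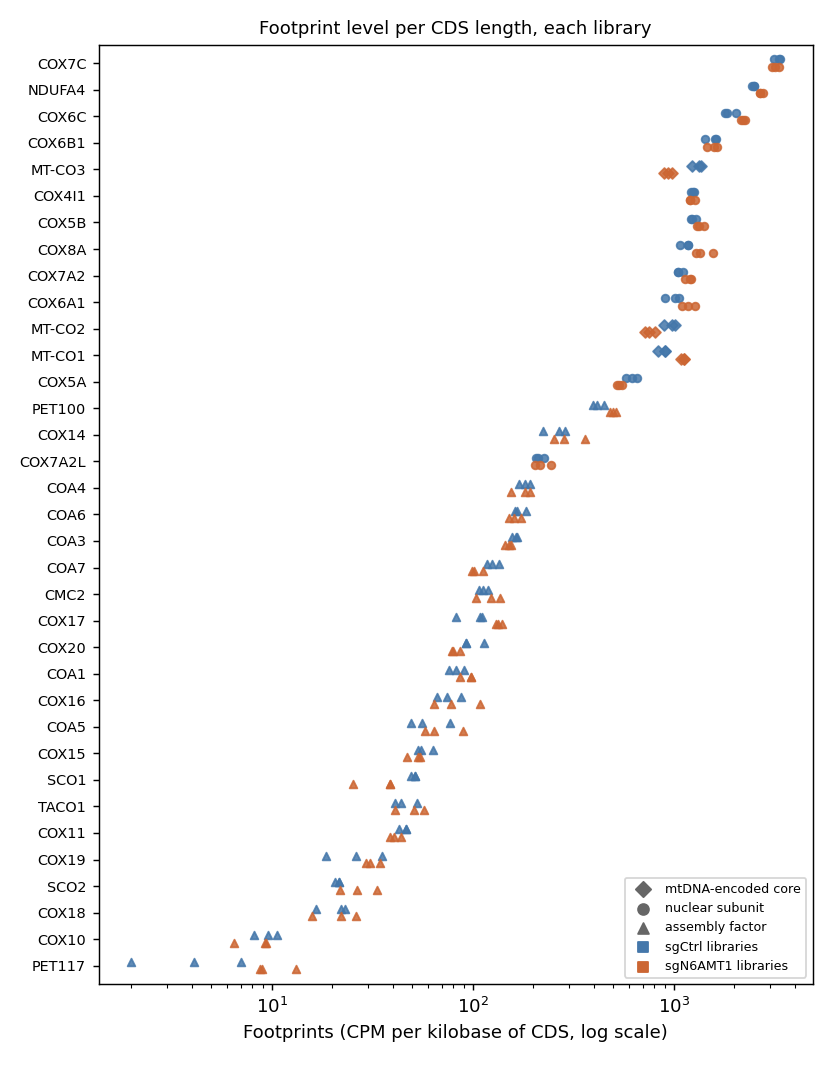
Footprints per kilobase of CDS (CPM per kb, log axis) for the 35 complex IV genes with a known CDS length, 1 point per library, ordered by the sgCtrl mean. Subunits fill the top of the order and assembly factors the bottom, with PET100 and COX14 above COX7A2L. MT-CO2 and MT-CO3 moved left and MT-CO1 right in sgN6AMT1.

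Assembly factors as a class kept the same summed level, 829.8, 847.4 and 881.0 CPM in sgCtrl and 849.9, 849.4 and 874.0 CPM in sgN6AMT1. Of 21 tested, 2 were called higher and 2 lower, and 4 in each direction did not overlap between the groups. Over all tested genes, 12.9% were called higher and 13.9% lower, and 18.4% and 19.2% did not overlap. The median log2 fold change was 0.12.

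Copper reaches the enzyme through a relay in which COX17 hands the metal to SCO1 and SCO2, which load the copper A site of MT-CO2, and to COX11, which serves MT-CO1. SCO1 (chromosome 17, CDS of 906 bases) showed the largest decrease of any tested member, with 93, 135 and 91 counts under sgCtrl and 52, 81 and 65 under sgN6AMT1. Its CPM values were 46.7, 46.5 and 44.9 for sgCtrl, 22.8, 35.0 and 35.3 for sgN6AMT1. The controls were close together, and sgN6AMT1 1 was far below the other depleted libraries. The log2 fold change was -0.58 (SE 0.14, edgeR adjusted p 5.81e-04). It was -0.39 without sgN6AMT1 1 (adjusted p 0.0398), and the call held in every other setting as well.

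COX17 (chromosome 3, CDS of 297 bases) had 49, 94 and 67 counts under sgCtrl and 91, 96 and 71 under sgN6AMT1, or 24.6, 32.4 and 33.0 CPM against 39.9, 41.5 and 38.5 CPM. All depleted libraries were higher (log2 fold change 0.40, SE 0.14, edgeR adjusted p 0.0234), and sgCtrl 1 was the lowest. Without sgCtrl 1 the log2 fold change was 0.29 (adjusted p 0.166), and the call was also lost without sgN6AMT1 2 (0.0964) and under DESeq2 (0.226). Of the other copper factors, SCO2 had 16.6, 17.2 and 17.3 CPM in sgCtrl and 17.5, 21.2 and 26.6 CPM in sgN6AMT1, apart by a narrow margin (log2 fold change 0.33, edgeR adjusted p 0.202). COX11, COX19 and COA6 overlapped between the groups, with log2 fold changes of -0.13, 0.24 and -0.08.

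PET100 (chromosome 19, CDS of 222 bases), a small inner-membrane factor, had 175, 290 and 187 counts under sgCtrl and 262, 247 and 204 under sgN6AMT1, or 87.9, 100.0 and 92.2 CPM against 115, 107 and 111 CPM. The groups were apart, but the test was close to its limit (log2 fold change 0.24, SE 0.092, edgeR adjusted p 0.0431). The call was lost in 9 of 16 settings, among them DESeq2 (adjusted p 0.242), the replicate block (0.0524) and the fits without sgCtrl 1 (0.163), sgCtrl 3 (0.107), sgN6AMT1 1 (0.145), sgN6AMT1 2 (0.0680) or sgN6AMT1 3 (0.0789).

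COA7 (chromosome 1, CDS of 696 bases), a heme-binding factor of the intermembrane space, had 162, 272 and 175 counts under sgCtrl and 160, 160 and 143 under sgN6AMT1. It read 81.4, 93.8 and 86.3 CPM against 70.1, 69.1 and 77.6 CPM, without overlap (log2 fold change -0.28, SE 0.10, edgeR adjusted p 0.0331). DESeq2 did not call it (adjusted p 0.179), nor did fits without sgCtrl 2 (0.180), sgN6AMT1 1 (0.0888) or sgN6AMT1 2 (0.132). COA4, COA5 and CMC2, the other members of this loose group, overlapped between the groups.

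Apart from the copper factors above, the tested members listed for newly made MT-CO2 and MT-CO1 did not pass the test. For MT-CO2, the chaperone COX20 had 36.2, 36.5 and 44.9 CPM in sgCtrl and 31.1, 34.1 and 31.5 CPM in sgN6AMT1 (log2 fold change -0.27, SE 0.14, edgeR adjusted p 0.149), and COX16 and COX18 overlapped. For MT-CO1, the translational activator TACO1 had a log2 fold change of 0.13 (95% interval -0.13 to 0.39, edgeR adjusted p 0.506), and COX14 and COA1, which hold newly made MT-CO1, had 0.20 each, all with overlap. COA3, the partner of COX14, was lower in every depleted library by a small amount (log2 fold change -0.11, edgeR adjusted p 0.564). SURF1, mutated in Leigh syndrome, had 22, 29 and 21 counts under sgCtrl and 26, 33 and 37 under sgN6AMT1, without overlap in CPM (log2 fold change 0.52, SE 0.24, edgeR adjusted p 0.0951). Of 15 alternative settings, SURF1 passed the test in 1, without sgN6AMT1 1 (0.69, adjusted p 0.0332). Its highest library was sgN6AMT1 3 (20.1 CPM), without which the value was 0.30 (adjusted p 0.463). DESeq2 did not call it (adjusted p 0.397). The heme a enzymes COX10 and COX15 had -0.19 and -0.14, with overlap.

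Other genes of complex IV formation were read from a list of 22, all of which were tested. By edgeR, 0 were called higher (0 also at an unadjusted p under 0.05, and 0 by DESeq2) and 5 lower (22.7%; 3 by DESeq2), beside 12.9% and 13.9% of all tested genes. The median log2 fold change of the list was -0.06. LRPPRC, which stabilizes mtDNA-encoded mRNAs, had 1810, 2601 and 1702 counts under sgCtrl and 1418, 1426 and 1067 under sgN6AMT1, and went from 882 ± 37.4 to 606 ± 23.0 CPM (SD, n = 3 each; log2 fold change -0.54, SE 0.051, edgeR adjusted p 1.01e-15). Its partner SLIRP had a log2 fold change of -0.13 and did not pass (SE 0.068, edgeR adjusted p 0.140).

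CYCS, cytochrome c itself and so the electron donor of the enzyme, had 1559, 2540 and 1682 counts under sgCtrl and 1383, 1453 and 1077 under sgN6AMT1 (829 ± 46.3 against 606 ± 21.5 CPM, SD, n = 3 each). Depleted libraries were all lower, and the log2 fold change was -0.45 (SE 0.051, edgeR adjusted p 3.77e-12). CHCHD4, the receptor that imports and oxidizes small cysteine-rich proteins such as COX17, had 87, 120 and 100 counts against 68, 77 and 55 (log2 fold change -0.52, SE 0.14, edgeR adjusted p 1.89e-03). FASTKD5, needed for mature MT-CO1 mRNA, had 108, 163 and 136 counts against 114, 99 and 68 (log2 fold change -0.43, SE 0.12, edgeR adjusted p 4.25e-03). Both stood apart in CPM. The insertase OXA1L overlapped between the groups (log2 fold change -0.19, SE 0.075, edgeR adjusted p 0.0473).

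Because eRF1 reads all stop codons of cytosolic mRNAs, the stop codons of the nuclear members were set beside their calls. Of 31 tested nuclear members with a known CDS end, 19 ended on TGA (61.3%), 8 on TAA and 4 on TAG, beside 49.1%, 29.7% and 21.1% of 8588 tested genes. Those with TGA include COX19, whose listed transcript is annotated as a target of nonsense-mediated decay, and its other transcripts were not examined. Members with TGA held 4 of the higher calls and 0 of the lower calls, those with TAA 2 of each, and those with TAG 0 and 1. Over all tested genes, 12.3% of those with TGA, 13.2% with TAA and 14.2% with TAG were higher, and 12.5%, 16.3% and 13.3% were lower. Differences between the stop codon classes were not tested, and nothing particular to the members was read from their few calls.

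The CDS ends of nuclear members are shown for the 3 that fell, and for 2 of those called higher in every setting, written as above. They are SCO1 (chr17:10681119-10681148, minus strand), COX5A (chr15:74920320-74920349, minus strand), COA7 (chr1:52687720-52687749, minus strand), COX6A1 (chr12:120440508-120440537, plus strand) and COX8A (chr11:63976291-63976320, plus strand).
SCO1: cacatgaggccatacagaaaaaagagcTAG
COX5A: ttttcctttattgagtaccaagccatgTAA
COA7: aaaggtgtccaacccttaacatttgggTAA
COX6A1: ccacttccaactggctacgaagatgaaTAA
COX8A: cacctggagacctacaggaggccagagTGA
SCO1, COX5A and COA7 end on TAG or TAA, and COX6A1, which rose, shares TAA with COX5A and COA7. COX6C, called higher in every setting but not shown, also ends on TAA.

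Short coding sequences were a second shared feature. The nuclear subunits had CDS of 192 to 510 bases and the assembly factors 174 to 1332, with a median of 346.5 bases over nuclear members, beside 1395 over all tested genes. Among 817 tested genes as short as the nuclear subunits, 18.6% were called higher and 13.1% lower. With trends on CDS length and GC content removed, COX8A, COX6A1 and COX6C were still called, as were the lower calls SCO1, COX5A (log2 fold change -0.26, adjusted p 9.34e-05) and COA7 (-0.34, adjusted p 4.00e-03). The trends were not removed from mtDNA-encoded genes, so this setting could not test length or GC content for the core. COX7C became a lower call (-0.12, adjusted p 0.0190). The higher calls COX7A2, COX17 and PET100 were lost (adjusted p 0.143, 0.0554 and 0.176).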

How the data were processed

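Ribosome footprints of 6 K562 libraries were sequenced after RNase I digestion, with cycloheximide in the lysis buffer. The deposited table held whole-number counts per transcript, neither normalized nor pooled. The authors removed adapters (cutadapt), selected reads by footprint length, aligned them to GRCh38 (HISAT2), discarded rRNA and tRNA, realigned to canonical transcripts (bowtie2) and assigned P-sites (riboWaltz). Whether the counts are P-sites over CDS or overlaps with the annotation was not stated, nor was the handling of reads shared with pseudogenes or nuclear copies of mtDNA. Without molecular identifiers, PCR copies were not separated, and counting error is a lower limit. A footprint count moves with the amount of mRNA as well as with its translation, and matched RNA libraries were not used here. In such bulk libraries, fewer expressing cells and less signal per cell cannot be told apart.

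Counts were analysed in R 4.3.3 with edgeR 4.0.16: filterByExpr with a minimum of 10 counts (9202 of 19330 transcripts kept), trimmed-mean (TMM) factors, and the robust quasi-likelihood F test, 2-sided, adjusted by Benjamini-Hochberg across all 9202. Positive log2 fold changes mean higher in sgN6AMT1, and the SE was derived from F. CPM use TMM-adjusted library sizes, and CPM per kb divide by the CDS length in GENCODE 44, found for 35 members (COX7B and SURF1 were without a match). For COX19 this length is that of a transcript annotated as a target of nonsense-mediated decay. The common biological coefficient of variation was 4.36%. Replicate libraries within a group differed by 1.25 to 1.68 chi-square per degree of freedom, more than sampling noise alone, and libraries of different groups by 4.89 to 7.04. The methods describe independent transductions. Exact permutation tests, 2-sided, served for ratios and shares. The scripts were tested on simulated data.

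Members and lists were chosen with earlier results of these data known, so counts over them are descriptions. All members were accounted for. Full values were given for the core genes and for members past the threshold, and the names of members under the filter or with groups apart. From the other biogenesis list, genes past the threshold were named. SLIRP was added as the partner of LRPPRC after its values were seen. Alternatives were DESeq2 1.42.0, limma-voom (limma 3.58.1), RLE and upper-quartile factors, total counts only, no filter, a mean of at least 50 counts, the replicate number as a block, removal of loess trends (span 0.5) on CDS length and GC content, scaling without mtDNA-encoded ORFs, and fits without each library. The loess trends were fitted on and removed from nuclear genes with a CDS length only, so mtDNA-encoded ORFs, COX7B and SURF1 were not adjusted.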

Additional observations from a re-analysis of the deposited data

How the results depend on the processing

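Of the 12 called members, 7 kept their call under every alternative: MT-CO1, MT-CO2, MT-CO3, COX6A1, COX6C, COX8A and SCO1. For the core genes, the removal of length and GC trends was no test, since it left them unadjusted. For alternatives other than DESeq2, the share of all tested genes called is not given, so the counts in this section only describe the members. DESeq2 called 4 members higher and 3 lower, with 0 nuclear subunits lower, 0 assembly factors higher and 1 lower, and 3 other biogenesis genes lower. With total counts as the only scaling, the median over all genes moved by 0.055 (log2). This gave 9 members higher and 3 lower, 6 nuclear subunits higher and 0 lower, 1 assembly factor lower and 1 other biogenesis gene higher. The summed CPM differences (sgN6AMT1 minus sgCtrl) became 476 for nuclear subunits (288 in the report's setting), 36.3 for assembly factors (5.01), 513 for all nuclear-encoded members (293) and 560 for all members (230). The sum of the mtDNA-encoded core changed sign, with a difference of 47.2 CPM (-62.7 in the report's setting, where the groups overlapped). With length and GC trends removed, 4 members were higher and 6 lower, with 2 nuclear subunits lower, 0 assembly factors higher and 8 other biogenesis genes lower. With a mean of at least 50 counts, 9 members were higher and 4 lower, 6 nuclear subunits were higher, 1 assembly factor was lower and 1 other biogenesis gene higher, and without a filter 1 assembly factor was higher.

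With 1 library left out, 4 to 6 members were higher and 3 to 5 lower, 0 to 1 nuclear subunits were lower, and 0 to 2 assembly factors were higher and 1 to 2 lower. The low ends came without sgN6AMT1 2 (4 and 3 members, 0 nuclear subunits lower, 0 and 1 assembly factors), without sgCtrl 1 (4 members and 0 assembly factors higher) and without sgCtrl 3 (0 nuclear subunits lower). Several uncalled values near 0 changed sign. Total counts gave 0.03 for COX4I1, 0.02 for COX7C and 0.01 for COA4, a mean of 50 counts gave 0.00 for COX4I1, and trend removal gave -0.06 for COX6B1 and -0.00 for COX7A2L. Left-out libraries gave ranges of -0.05 to 0.06 for COX6B1, -0.02 to 0.11 for COX7A2L, -0.08 to 0.29 for COX16, -0.14 to 0.23 for COX18 and -0.11 to 0.05 for COA4. The cause of these changes was not tested.

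Libraries of the same replicate number did not deviate together (correlations of -0.139, 0.0351 and 0.00326 over 5874 genes). Libraries of different numbers gave -0.141 to 0.139. Whether libraries of the same number were prepared together cannot be told from these values. With the replicate block, 1 assembly factor was higher, since PET100 lost its call, and COX7A2 lost its call as well (adjusted p 0.0662). Low counts limit SURF1, SCO2, COX16, COX18, COX19, COA5, COX10 and PET117, among others. For these, changes of the size seen in MT-CO1 and MT-CO2 could not be told from 0 at this depth. A comparison with protein lengths was not run.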
